A study of Mus musculus with 12 samples.

Results

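The islet hormones and granins are 10 genes, taken by name from the 54022 genes of the deposited tables: the insulin genes Ins1 and Ins2, islet amyloid polypeptide Iapp, glucagon Gcg, somatostatin Sst, pancreatic polypeptide Ppy, peptide YY Pyy, urocortin 3 Ucn3, and the chromogranins Chga and Chgb. All 10 were in both the table of counts and the table of FPKM values (fragments scaled by gene length and library size, a level per length). They were measured by RNA-seq in MIN6, a wild-type mouse insulinoma line labelled as an insulin-secreting β-cell line, so every group is the same single line and no islet or animal is involved. The cells received vehicle or trimethylamine N-oxide (TMAO, 100 nM, 18 h) and were studied with low or high glucose. This gave 4 groups of 3 libraries: low glucose with vehicle, low glucose with TMAO, high glucose with vehicle and high glucose with TMAO. The series text calls the 3 libraries of a group biological replicates, and p-values measure the spread between these cultures of 1 line.

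Insulin is made as a prohormone, sorted into dense-core granules, cut by prohormone convertases and released when glucose metabolism depolarises the β-cell. Amylin, the product of Iapp, is stored in the same granules, while glucagon, somatostatin and pancreatic polypeptide are the products of other islet cell types. Chromogranins A and B are acidic proteins that aggregate in the granule and take part in its formation, and urocortin 3 marks mature β-cells and acts on neighbouring δ-cells in the islet.

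The libraries held between 16793162 and 22340542 counted fragments, and the 10 genes took 5.26% to 6.12% of them. Of the 10 genes, 8 passed the filter on low counts and were tested among 16222 genes; Ppy and Pyy did not pass. The β-cell label fitted its markers, with all 9 of 9 listed β-cell genes at a mean of at least 1 FPKM. Of the 6 listed α-cell genes 2, Ttr and Gcg itself, reached a mean of 1 FPKM (634.2 and 216.5 FPKM), while the α-cell factors Irx1 and Irx2 had means of 0.0387 and 0.159 FPKM. Of the 4 listed δ-cell genes Rbp4 (6.18 FPKM) and Sst itself (1.39 FPKM) reached it, while the δ-cell factor Hhex had no count in any library. The acinar markers were all at or below 1 count per library. Of the 5 duct genes Krt7 (20.28 FPKM) and Spp1 (38.65 FPKM) were present and Krt19 and Sox9 were at 0, and of the 4 immune genes Cd68 (4.04 FPKM) was present and Ptprc and Adgre1 were at 0. Both low-glucose libraries numbered 3 stood apart for these genes: within low glucose with vehicle, and again within low glucose with TMAO, replicate 3 held the lowest normalised count of 8 of the 8 tested members. No other library held the lowest value of more than 4 of them. Called and several uncalled differences of the members with glucose are therefore given with and without those libraries.

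Sequence is shown first where it bears on what could be measured. Ins1 and Ins2 are a pair of near-identical genes, and their protein-coding sequences (GENCODE M21 transcripts Ins1-201 and Ins2-201) were identical at 300 of 324 aligned bases (92.6%). The last 100 coding bases of each, on chr19:52264848-52264947 (plus strand) and chr7:142678716-142678815 (minus strand) of GRCm38, differed at the 4 bases in capitals.
Ins1: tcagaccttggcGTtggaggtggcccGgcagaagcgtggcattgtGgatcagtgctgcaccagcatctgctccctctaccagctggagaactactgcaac
Ins2: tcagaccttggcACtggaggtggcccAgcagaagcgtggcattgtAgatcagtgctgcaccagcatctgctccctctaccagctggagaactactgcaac
The longest stretch without a difference was the final 54 bases. The reads, as the study describes them, are longer than this stretch. Sequence outside the coding part was not compared. How fragments matching both genes were assigned is not given in the sources used here. How far this likeness makes the split of counts between Ins1 and Ins2 uncertain was not tested.

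The promoters of the 2 genes that were called below, Gcg and Iapp, are shown with those of Ins1 and Sst. Of the motifs marked in them, the E box is that whose binding factor, Neurod1, is described later. The stretches are the 150 bases before the RefSeq start of each gene in GRCm38.p6: chr2:62483654-62483803 (minus strand) for Gcg, chr6:142298275-142298424 (plus) for Iapp, chr19:52264147-52264296 (plus) for Ins1 and chr16:23890845-23890994 (minus) for Sst. Capitals mark 3 motifs found on either strand: the E box CATCTG (or CAGATG), of the kind bound by NeuroD1, the TATA box TATAAA (or TTTATA), and the cyclic AMP response element TGACGTCA with its core TGACG (or CGTCA).
Gcg: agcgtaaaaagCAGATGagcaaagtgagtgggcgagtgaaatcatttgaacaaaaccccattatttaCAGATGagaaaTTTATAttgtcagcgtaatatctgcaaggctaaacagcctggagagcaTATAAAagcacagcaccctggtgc
Iapp: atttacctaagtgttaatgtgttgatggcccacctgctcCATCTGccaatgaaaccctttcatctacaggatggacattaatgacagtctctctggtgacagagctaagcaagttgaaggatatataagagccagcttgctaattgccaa
Ins1: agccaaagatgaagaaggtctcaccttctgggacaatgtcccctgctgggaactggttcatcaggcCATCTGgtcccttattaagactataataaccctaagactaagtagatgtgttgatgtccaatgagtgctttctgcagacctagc
Sst: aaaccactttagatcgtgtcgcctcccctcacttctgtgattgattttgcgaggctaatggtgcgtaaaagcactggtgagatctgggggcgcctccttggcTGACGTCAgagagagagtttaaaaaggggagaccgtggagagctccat
RefSeq windows of 250 bases before the start were matched for 9 of the 10 members, with Ins2 the member that was not matched. The E box was in the windows of Ins1, Iapp, Gcg and Ucn3, and in 14.4% of all 32851 windows. The cyclic AMP response element was in those of Sst and Chgb and in 1.55% of all windows. Its core, which the full element contains, was in Sst, Chga and Chgb and in 17.8% of all. The TATA box was in the windows of Gcg and Ppy and in 12.4% of all. The homeodomain core TAAT (or ATTA) was in Ins1, Iapp, Gcg, Sst, Ucn3 and Chga and in 54.9% of all windows. These are matches of letters, not measured binding.

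The β-cell hormones were the 3 most abundant of all transcripts per length. Ins2 ranked first of all genes with a mean of 25488.7 FPKM over the 12 libraries (SD 1314.8), Iapp came next with 12107.2 FPKM (SD 567.5), and then Ins1 with 4666.0 FPKM (SD 258.5). The granins followed, Chga at rank 7 with 1800.3 FPKM (SD 49.57) and Chgb at rank 27 with 646.1 FPKM (SD 14.84). Gcg stood at rank 116 with 216.5 FPKM (SD 9.93), which is 0.849% of the Ins2 level. Ucn3 had 15.5 FPKM (SD 1.39) and Sst 1.39 FPKM (SD 0.393). The ranges of neighbouring genes over the 12 libraries did not overlap from Ins2 down to Ppy. Ppy and Pyy, the last pair, did overlap, so their order is not resolved.

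**Figure D1:**
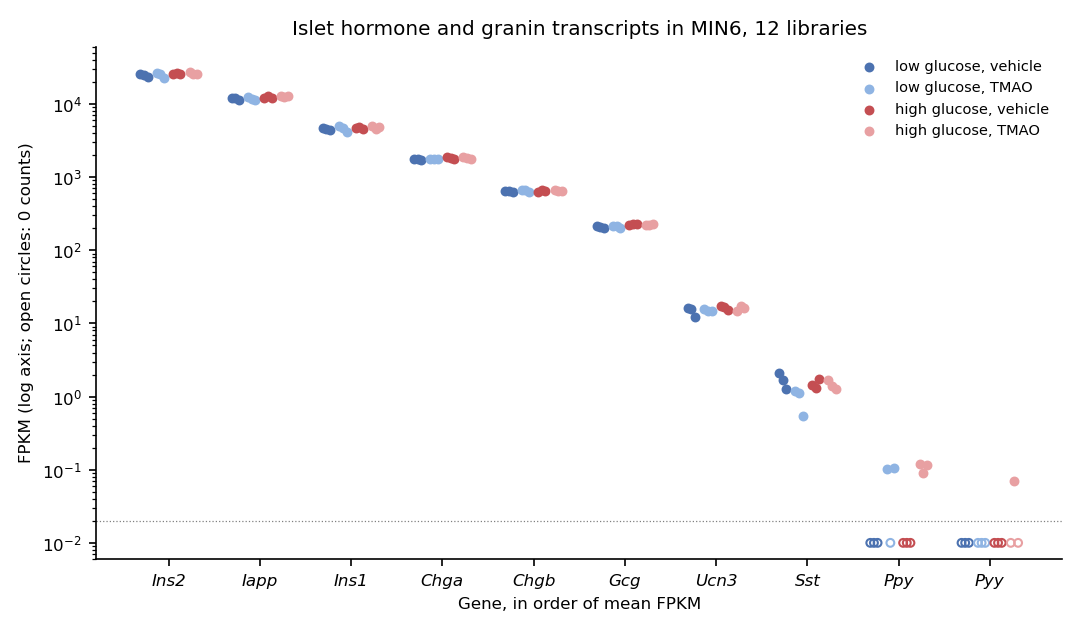
FPKM of each islet hormone and granin gene in each of the 12 libraries, on a log axis, with genes in order of mean FPKM and points coloured by condition; open circles under the dotted line stand for libraries with 0 counts. Levels run from 25488.7 FPKM for Ins2 to under 0.2 FPKM for Ppy and Pyy, and from Ins2 down to Sst the libraries of neighbouring genes do not overlap, whereas those of Ppy and Pyy do.

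Ppy gave 5 counts in all, 1 in each of 5 libraries, and Pyy gave 1 count in 1 library. A floor of 3 counts corresponds to 0.269 to 0.357 FPKM for Ppy and 0.213 to 0.283 FPKM for Pyy, depending on the library, and covers counting error only. All 5 Ppy counts fell in libraries with TMAO, but each of these libraries held a single count, under the floor, and no difference is read from them. Transcripts of both genes were not detectable above this floor at this depth.

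The coordinates of the deposited tables (mm10, also known as GRCm38) place Ins1 at chr19:52264323-52265456, Iapp at chr6:142298423-142303961, Gcg at chr2:62474530-62483650, Sst at chr16:23889581-23890844, Ucn3 at chr13:3940688-3945349, Chga at chr12:102554969-102565028 and Chgb at chr2:132781278-132795079. The table's Ins2 gene, chr7:142678656-142743381, is much longer than the common transcript: its merged exon length is 1312 bases, while Ins2-201 has 478 bases. FPKM divides by that length, so the FPKM ratio of Ins2 to Ins1, which was 5.26 to 5.72 over the libraries, depends on it. In plain counts Ins2 had 7.06 ± 0.184 (SD, n = 12) counts for each count of Ins1. Iapp was the member whose span overlapped another gene, Slco1a5, which lies on the opposite strand with a mean of 20.8 counts; no exon of one overlapped an exon of the other.

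High glucose was accompanied by more Gcg and Iapp transcript, by small amounts. Averaged over vehicle and TMAO, Gcg was 8.25% higher and Iapp 6.58% higher with high than with low glucose, and these were the 2 members of the 8 tested that passed the threshold (the quasi-likelihood F test of edgeR, Benjamini-Hochberg adjusted p under 0.05 over all tested genes). Of all 16222 genes, 8.19% were called in this comparison. All 8 fitted differences were positive, with a median log2 fold change of 0.08 against 0.00108 over all tested genes. Both calls were lost when the pair of low-glucose libraries numbered 3 was left out.

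Gcg encodes proglucagon, the source of glucagon in α-cells and of GLP-1 in the gut. With low glucose it measured 215.9, 207.4 and 201.9 FPKM in the vehicle libraries and 211.9, 211.4 and 199.6 FPKM in the TMAO libraries. With high glucose it measured 223.0, 227.4 and 227.3 FPKM with vehicle and 221.9, 223.6 and 226.4 FPKM with TMAO. The 6 high-glucose libraries all lay above the 6 low-glucose libraries, a separation upwards that was seen for 2.98% of the 12309 genes with a mean of at least 50 counts. The log2 fold change was 0.11 (SE 0.03, edgeR adjusted p = 0.0102), and the 95% confidence interval of the change was 3.86% to 12.8%. The call was kept when any single library was left out, with adjusted p up to 0.0427. Without both low-glucose libraries numbered 3 the log2 fold change was 0.09 and the adjusted p 0.0609. Within a treatment the change was of like size and did not pass the threshold, at 8.56% with vehicle (edgeR adjusted p = 0.14) and 7.94% with TMAO (edgeR adjusted p = 0.168).

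Iapp encodes amylin, which is released together with insulin. With low glucose it measured 11948.0, 11987.2 and 11211.7 FPKM with vehicle and 12275.4, 11710.9 and 11228.4 FPKM with TMAO. With high glucose it measured 11888.4, 12656.5 and 12176.3 FPKM with vehicle and 12926.6, 12361.6 and 12914.9 FPKM with TMAO. Over both treatments the high-glucose and low-glucose libraries overlapped, as they did within vehicle. The averaged log2 fold change was 0.09 (SE 0.03, edgeR adjusted p = 0.0413), with a 95% confidence interval of 2.36% to 11%. The adjusted p of this call lay close to the threshold. With any single library left out the log2 fold change stayed between 0.075 and 0.109. The call was kept without replicate 1 of low glucose with vehicle, of low glucose with TMAO or of high glucose with vehicle, and was lost without any 1 of the other 9 libraries, with adjusted p between 0.0522 and 0.139. Without both low-glucose libraries numbered 3 the log2 fold change was 0.06 and the adjusted p 0.175.

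For the insulin genes the difference with glucose did not pass the threshold in the fit without a replicate block. Ins2 measured 26033.5, 24526.3 and 23579.6 FPKM with low glucose and vehicle, 26598.0, 25431.2 and 22781.4 FPKM with low glucose and TMAO, 25994.6, 26662.5 and 25812.8 FPKM with high glucose and vehicle, and 27445.2, 25402.7 and 25596.9 FPKM with high glucose and TMAO. The low-glucose libraries spread more widely than the high-glucose ones and overlapped them at their upper end. The averaged difference of Ins2 was 5.47% (95% interval 0.533% to 10.6%, edgeR adjusted p = 0.186), and with the replicate number as a block it was called (log2 0.0785, edgeR adjusted p = 0.0485). Ins1, from 4119.8 to 4943.0 FPKM with low glucose and 4507.3 to 5038.5 FPKM with high glucose, differed by 3.61% (interval -2.14% to 9.7%, edgeR adjusted p = 0.536). Without the pair of low-glucose libraries numbered 3 the log2 differences shrank from 0.08 to 0.03 for Ins2 and from 0.05 to 0.00414 for Ins1.

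**Figure D2:**
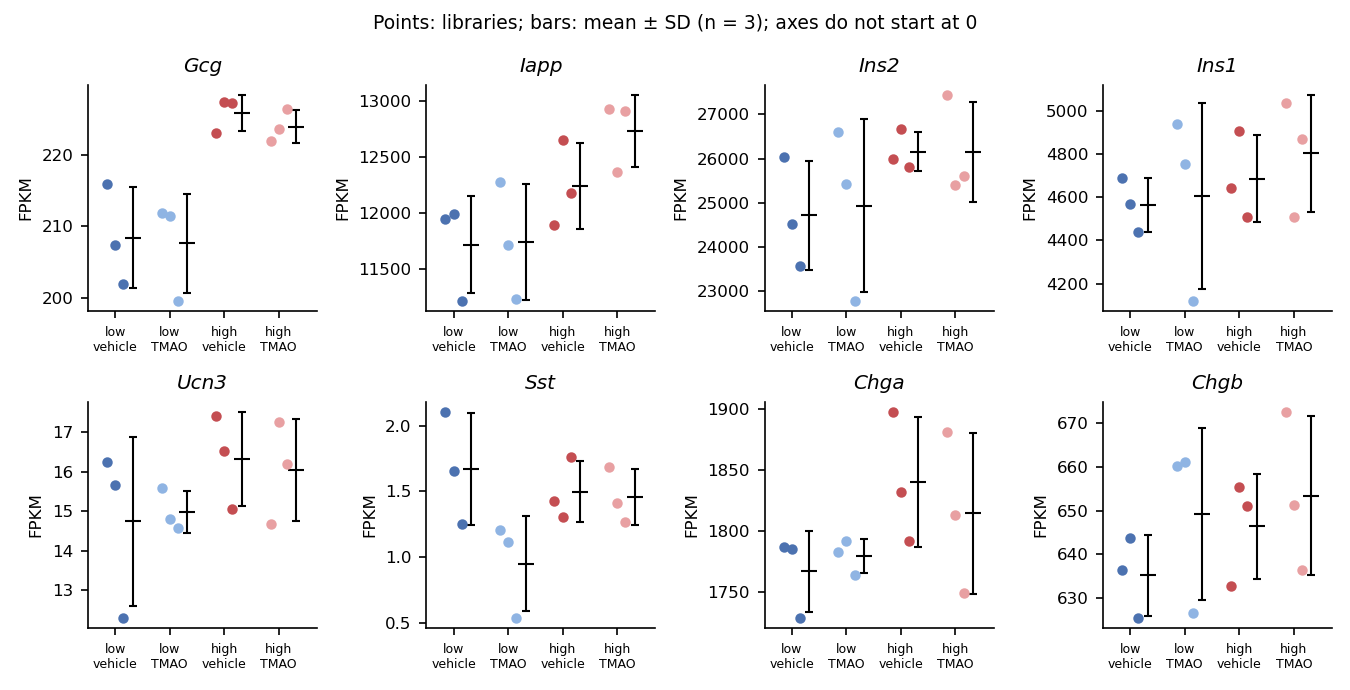
FPKM of the 8 tested members by condition (glucose over treatment on the horizontal axis), with a point for each library and bars for the mean ± SD of 3; the vertical axes do not start at 0. Gcg is the member whose 6 high-glucose libraries, from 221.9 FPKM, all lie above the 6 low-glucose libraries, up to 215.9 FPKM, and in both low-glucose groups the point of replicate 3 is the lowest in every panel.

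Ucn3 and the granins also did not pass the threshold. Ucn3 measured 12.29 to 16.25 FPKM with low glucose and 14.68 to 17.4 FPKM with high glucose, a difference of 9.24% (interval -0.0245% to 19.4%, edgeR adjusted p = 0.25). Its counts, 339 to 572 per library, are far below those of Gcg, and its interval is correspondingly wide. Chga, whose product is the precursor of several granule peptides, measured 1728.7 to 1791.7 FPKM with low glucose and 1748.9 to 1897.5 FPKM with high glucose, a difference of 3.16% (interval -0.703% to 7.18%, edgeR adjusted p = 0.377). Chgb measured 625.5 to 661.0 FPKM with low and 632.9 to 672.5 FPKM with high glucose, 1.32% apart (interval -2.5% to 5.28%, edgeR adjusted p = 0.782). The granins were the least variable members, with a coefficient of variation over the 12 libraries of 2.75% for Chga and 2.3% for Chgb. Sst, with 6 to 24 counts per library and a coefficient of variation of 28.2%, allowed a change of anywhere from -18.1% to 65.3%. Without both low-glucose libraries numbered 3 the averaged log2 difference went from 0.13 to 0.06 for Ucn3, from 0.04 to 0.03 for Chga, from 0.02 to 0.000987 for Chgb and from 0.22 to -0.00361 for Sst.

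Within vehicle 0 of the 8 tested members were called for glucose, where 3.3% of all genes were, and 1 member, Gcg, had an unadjusted p under 0.05, as did 13% of all genes. Within TMAO 0 of 8 were called, where 3.64% of all genes were, and 2 members, Iapp and Gcg, had an unadjusted p under 0.05, as did 14.7% of all genes. DESeq2's Wald test also called 0 members in either comparison. The vehicle differences were positive for 7 of the 8 members, with Sst the exception, and the TMAO differences for all 8 tested. The sign of the Sst difference in vehicle turned without replicate 1 of low glucose with vehicle (0.03 on the log2 scale). Those of Ins1 and Chgb in TMAO turned without replicate 3 of low glucose with TMAO (-0.0128 and -0.0154), and that of Chgb also without replicate 1 of high glucose with TMAO.

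Other transcripts that mark cell types moved with glucose beside these members. The summed level of the 9 β-cell markers was 1867.9 to 1953.8 FPKM in the low-glucose libraries and 2148.9 to 2385.6 FPKM in the high-glucose libraries, without overlap. Most of this step was Mafa. The other 8 markers summed to 1370.3 to 1407.2 FPKM with low and 1470.8 to 1493.3 FPKM with high glucose, again without overlap. Those 8 included Neurod1, with means of 83.77 and 84.95 FPKM with low and 125.1 and 128.1 FPKM with high glucose. Of single genes with a mean of at least 50 counts, 6.09% did not overlap between the 6 high-glucose and 6 low-glucose libraries. Nkx6-1, a β-cell transcription factor of the same list, had an averaged log2 difference of -0.12 and was not called (edgeR adjusted p = 0.112). Of these markers Mafa, Neurod1 and Slc2a2 (the glucose transporter GLUT2) were called higher, Slc2a2 by 0.09 on the log2 scale (SE 0.03, edgeR adjusted p = 0.0478, kept under 6 of 17 alternatives). In the α-cell list of 6 genes, Ttr (transthyretin, a carrier of thyroid hormone that islet cells make) had a mean of 634.2 FPKM and was also called higher, by 0.11 on the log2 scale (SE 0.03, edgeR adjusted p = 0.0279), a call kept under 9 of 17 alternatives and lost without both low-glucose libraries numbered 3. Irx1 and Irx2, transcription factors of α-cells, stayed near 0, with Irx2 at a mean of 0.159 FPKM. The δ-cell list gave 1 called gene, the ghrelin receptor Ghsr at a mean of 0.616 FPKM, higher by 0.43 (SE 0.135, edgeR adjusted p = 0.0464, kept under 2 of 17 alternatives). The immune list summed to 2.89 to 4.14 FPKM with low and 4.18 to 4.88 FPKM with high glucose, nearly all of it from Cd68. The summed α-cell list reached from 766.7 to 860.7 FPKM with low and from 853.3 to 910.7 FPKM with high glucose, with overlap. The summed δ-cell, PP-cell, acinar, duct, endothelial and stellate lists overlapped between the glucose levels. The part of any of these in the differences of Gcg and Iapp was not tested. In such bulk libraries, fewer cells with a transcript and less of it per cell cannot be told apart.

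TMAO was not accompanied by a called difference in any islet hormone or granin transcript at either glucose level. With high glucose, the setting the study took up in its own reading of the RNA-seq, 0 of the 8 tested members were called, where 0% of all genes were (0 of 16222, with 868 at an unadjusted p under 0.05). The lowest adjusted p among the members was 0.927 in edgeR's test, and no member had an unadjusted p under 0.05. DESeq2's Wald test called 0 members as well.

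The intervals bound what could have been missed with high glucose. For Ins2 the difference between TMAO and vehicle was -0.049%, with a 95% confidence interval of -6.6% to 6.96%. For Ins1 it was 2.5% (interval -5.45% to 11.1%) and for Iapp 4.01% (interval -1.77% to 10.1%). With a single library left out the log2 difference ran from 0.00171 to 0.0798 for Ins1, around 0.04 with all of them, and from 0.0378 to 0.0806 for Iapp. Gcg differed by -0.889% (interval -6.52% to 5.08%), Chga by -1.43% (interval -6.61% to 4.04%) and Chgb by 1.06% (interval -4.28% to 6.69%). Ucn3 had a wider interval, from -13.1% to 11.5%. Sst could not be bounded closely, with an interval of -39.9% to 58.4%.

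With low glucose 0 of the 8 members were called, where 0.00616% of all genes were, that is 1 gene of 16222. Apart from Sst, the members differed by between -0.314% and 2.25%. Sst measured 2.106, 1.658 and 1.253 FPKM with vehicle and 1.204, 1.112 and 0.5349 FPKM with TMAO, from 24, 19 and 14 against 14, 13 and 6 counts. In counts the lowest vehicle library and the highest TMAO library were equal, at 14 each. The log2 difference was -0.80 (SE 0.358), and with an edgeR adjusted p of 1 it did not pass the threshold. Sst was the 1 member with an unadjusted p under 0.05 in this comparison, as had 2.2% of all genes. Without both low-glucose libraries numbered 3 its log2 difference was -0.695, and with a single library left out it ran from -1.0 to -0.528, the latter without replicate 3 with TMAO. With high glucose the groups overlapped, at 1.425, 1.309 and 1.76 FPKM with vehicle and 1.687, 1.415 and 1.267 FPKM with TMAO.

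Averaged over both glucose levels, 0 members were called for TMAO, where 0% of all genes were (588 of 16222 had an unadjusted p under 0.05, and 0 of the members). The narrower intervals of this comparison ran from -4.25% to 5.38% for Ins2, from -3.93% to 7.7% for Ins1, from -1.94% to 6.33% for Iapp and from -4.63% to 3.6% for Gcg. For Chga and Chgb they ran from -4.07% to 3.54% and from -2.17% to 5.63%. The low-glucose and the averaged comparison also gave 0 called members in DESeq2's Wald test.

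**Figure D3:**
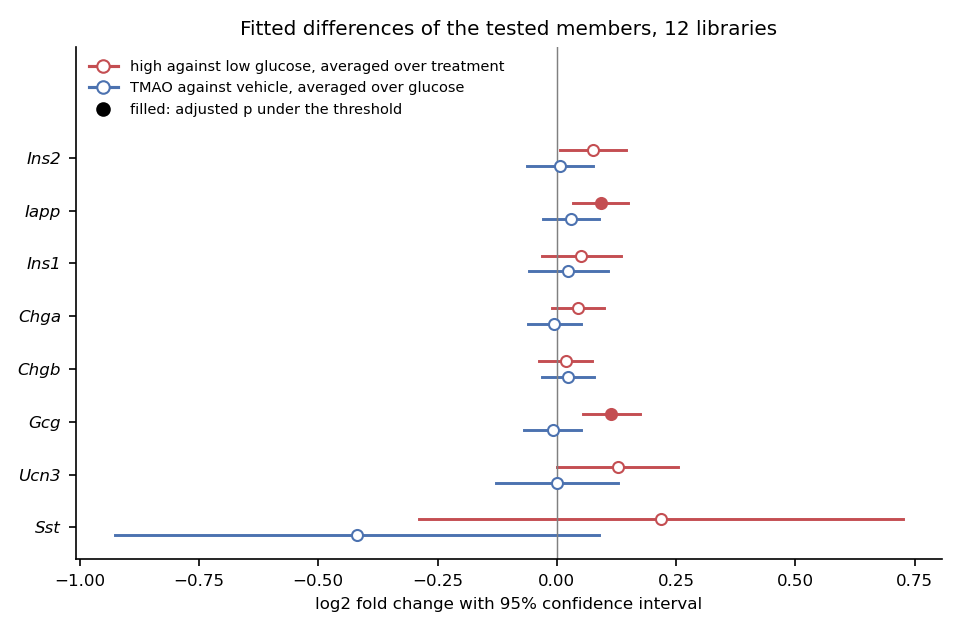
Fitted log2 fold change of each tested member with its 95% confidence interval, for high against low glucose averaged over treatment (red) and TMAO against vehicle averaged over glucose (blue), with filled points for an adjusted p under 0.05. Gcg at 0.11 and Iapp at 0.09 are filled for glucose, no point is filled for TMAO, and Sst has by far the widest intervals.

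The glucose response of the members was also compared between vehicle and TMAO. No interaction was called among the 8 tested members, where 0% of all genes were called (545 of 16222 had an unadjusted p under 0.05, and 0 of the members, in edgeR's test, and DESeq2's Wald test called 0 members). The lowest edgeR adjusted p among the members was 1. For Gcg the 2 responses differed by -0.577% (95% interval -8.48% to 8.01%) and for Iapp by 3.77% (interval -4.3% to 12.5%). The largest fitted difference was that of Sst, 0.77 on the log2 scale with an SE of 0.496. The glucose and TMAO comparisons share libraries with each other and are not independent.

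The proportions among related products within a library were steady. A ratio within a library does not depend on how libraries are scaled. The FPKM of Iapp was between 0.388 and 0.424 of the summed insulin FPKM in all 12 libraries. Chgb was between 0.334 and 0.370 of Chga, the lowest of these in replicate 1 of high glucose with vehicle. Over 6 tests of 3 log2 ratios, for glucose and for TMAO with 6 libraries against 6, the exact two-sided permutation p lay between 0.212 and 0.52, and all 6 Benjamini-Hochberg adjusted values were 0.52. The Ins2 to Ins1 ratio had a geometric mean of 5.51 with high and 5.42 with low glucose, 0.03 apart on the log2 scale with an SD over all libraries of 0.04. The Iapp to insulin ratio was 0.404 with high and 0.399 with low glucose, and 0.405 with TMAO and 0.399 with vehicle. All of these differences were smaller than the spread between libraries.

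**Figure D4:**
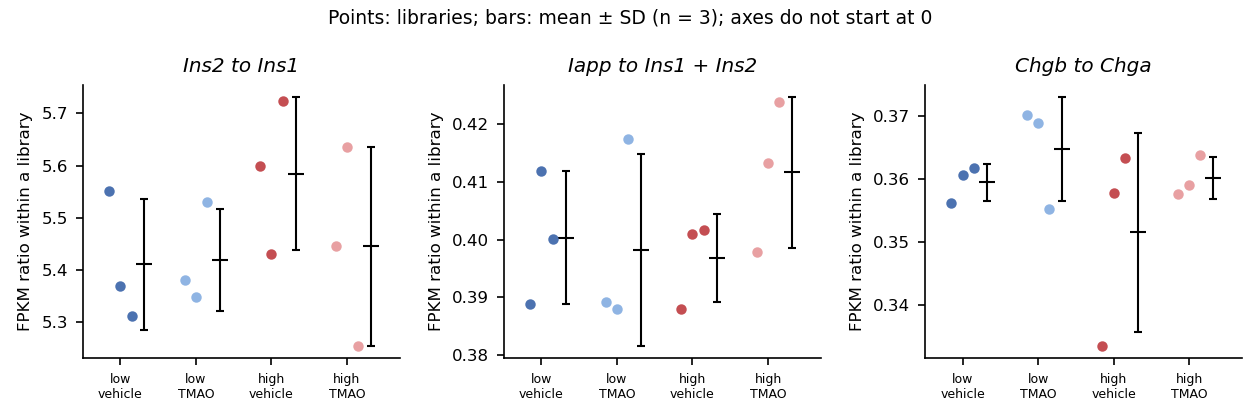
Ratio of FPKM values within each library by condition for Ins2 to Ins1, Iapp to the sum of Ins1 and Ins2, and Chgb to Chga; points are libraries, bars the mean ± SD of 3, and the vertical axes do not start at 0. The conditions overlap in all 3 ratios, which span 5.26 to 5.72, 0.388 to 0.424 and 0.334 to 0.370.

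Genes that act on or beside the members were read from lists of the pathway. Among 12 other granins and granule proteins, all of them tested, 2 rose with glucose in the averaged comparison, where 8.19% of all genes were called in either direction, and none was called lower. Vgf, the precursor of several neuroendocrine peptides, rose by 0.25 on the log2 scale (SE 0.03, edgeR adjusted p = 3.57e-06), from means of 210.8 and 216.2 FPKM with low glucose to 260.9 and 247.8 FPKM with high glucose. Cartpt, the precursor of the CART peptide, rose by 0.30 (SE 0.06, edgeR adjusted p = 0.00122). The more abundant granule proteins Scg2 (secretogranin II, 1490.6 FPKM), Scg3 (secretogranin III, 325.6 FPKM) and Ptprn (a membrane protein of the granule, 273.9 FPKM) were not called. Both averaged calls were kept under all 17 alternatives tried. Vgf was also called within both treatments, in vehicle under all 12 alternatives and in TMAO under 9 of 12 (adjusted p up to 0.0992), and Cartpt within TMAO under 5 of 12.

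The list of prohormone processing genes held 15 names, of which 12 were tested, and 0 were called in any of the 7 comparisons. The most abundant were Cpe (carboxypeptidase E, which trims cut prohormones) with 1339.6 FPKM, P4hb (protein disulfide isomerase) with 328.4 FPKM and Pcsk1n (proSAAS, an inhibitor of the convertase Pcsk1) with 200.1 FPKM. In the averaged glucose comparison 1 of the 12 had an unadjusted p under 0.05, against 20.1% of all tested genes.

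Transcription factors known to act on the insulin genes included clear changes with glucose. Of 16 tested among 18, 4 rose in the averaged comparison and none was called lower, where 8.19% of all genes were called in either direction. The median log2 difference of the 16 was 0.0153, and 12 of them had an unadjusted p under 0.05, in both directions. Neurod1, which binds E boxes of the kind printed above, rose by 0.59 (SE 0.03, edgeR adjusted p = 3.68e-15), from means of 83.77 and 84.95 FPKM to 125.1 and 128.1 FPKM. Mafa, a β-cell activator of the insulin promoter, rose by 0.54 (SE 0.08, edgeR adjusted p = 0.00264), from 523.9 and 523.2 FPKM to 827.9 with vehicle and 702.7 with TMAO. Nkx2-2, a homeodomain factor of islet cells, rose by 0.21 (SE 0.03, edgeR adjusted p = 1.45e-05). Isl1, a LIM homeodomain factor, rose by 0.11 (SE 0.03, edgeR adjusted p = 0.036). The calls of Neurod1, Mafa and Nkx2-2 were kept under all 17 alternatives tried, that of Isl1 under 8 of 17, with adjusted p up to 0.113. Pdx1 (187.1 FPKM) and Nkx6-1 (163.3 FPKM), homeodomain factors of the β-cell, were not called. Within vehicle the called genes were Mafa, Neurod1, Nkx2-2 and Insm1, and within TMAO Neurod1 and Nkx2-2 rose. Of these within-treatment calls, those of Neurod1 in both treatments and Nkx2-2 in vehicle were kept under all 12 alternatives, whereas Mafa in vehicle was kept under 7, Insm1 in vehicle under 6 and Nkx2-2 in TMAO under 3. The interaction was not called for any of the 16.

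Receptors for these hormones were mostly scarce, with 10 of 21 tested. Sstr3 and Sstr5, somatostatin receptors, fell with glucose in the averaged comparison, by 0.16 (SE 0.04, edgeR adjusted p = 0.00178) and by 0.23 (SE 0.05, edgeR adjusted p = 0.00267). Sstr3 measured 18.38 to 18.78 FPKM with low glucose and 16.12 to 16.97 FPKM with high glucose, without overlap. Of the 12309 genes with a mean of at least 50 counts, 6.09% did not overlap between the glucose levels. Both calls were kept under all 17 alternatives tried. The most abundant receptors were Glp1r, the GLP-1 receptor and so a target of a Gcg product, with 97.71 FPKM, and Gipr, the GIP receptor, with 21.24 FPKM. Neither was called.

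**Figure D5:**
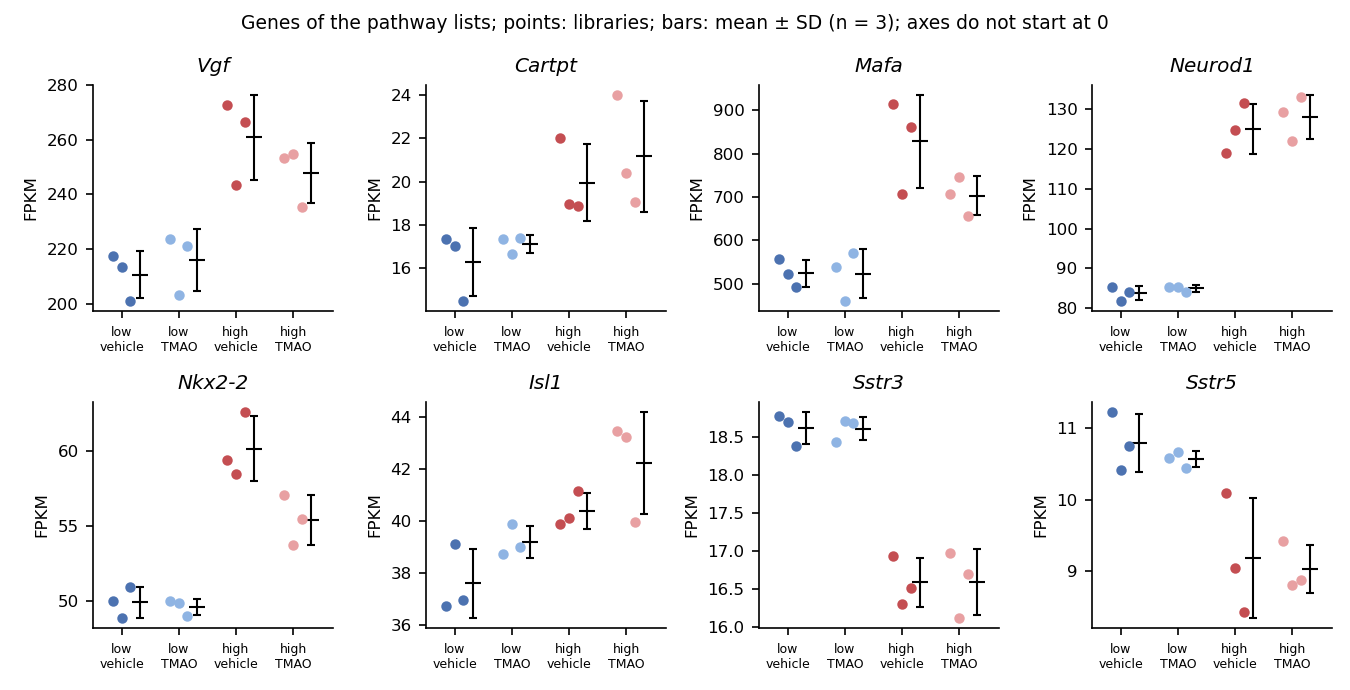
FPKM by condition of 8 genes from the pathway lists that were called for glucose averaged over treatment; points are libraries, bars the mean ± SD of 3, and the vertical axes do not start at 0. The group means of Neurod1 rise from 83.77 and 84.95 to 125.1 and 128.1 FPKM and those of Mafa from 523.9 and 523.2 to 827.9 and 702.7 FPKM, while those of Sstr3 and Sstr5 fall.

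Other peptides were abundant in these cells beside the islet hormones. Of 32 further endocrine peptide genes 9 were tested. Cck (cholecystokinin) had 1337.3 FPKM, Npy (neuropeptide Y) 1186.9 FPKM and Sct (secretin) 707.4 FPKM, each above Gcg and Chgb. None of the 9 was called in any comparison. Of 9 transcription factors of other islet cells 3 were tested and none was called, with Etv1 at 22.04 FPKM, Pax4 at 12.63 FPKM and Irx2 at 0.159 FPKM. In none of these lists was a gene called for TMAO.

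Among the 12308 other genes with a mean of at least 50 counts, those whose log2 levels over the 12 libraries ran most like Gcg were Gm27168 (Pearson r = 0.961), Ppp1r15a (r = 0.95) and Ier3 (r = 0.95). Ppp1r15a encodes a subunit that directs a phosphatase to the translation factor eIF2α, and Ier3 is an immediate early response gene. Ier3 averaged 5.21 and 5.37 FPKM with low glucose and 10.68 and 12.22 FPKM with high glucose, a far wider step than that of Gcg. The genes most like Iapp were Serpinb6a (r = 0.949), a protease inhibitor, Ttr (r = 0.934) and Trp53inp2 (r = 0.931), which takes part in autophagy. These are descriptions of the same 12 libraries, which share the glucose difference, and they were picked as the highest of all.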

How the data were processed

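Poly-adenylated RNA of 12 MIN6 cultures was sequenced, 3 libraries for each of 4 conditions taken from the sample labels. Per the submitters' processing notes the tools were HISAT2 2.0.5, featureCounts 1.5.0-p3 and DESeq2 1.16.1 with build mm10. The authors deposited counts (fragments per gene, not normalised) and FPKM values; whether counting used strand is not given in the sources used here. The FPKM totals differed from the sums of counts by -0.186% to 1.37%. The number of unused per-library columns was 0.

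Counts were tested with edgeR 4.0.16 in R 4.3.3: filterByExpr, TMM, robust dispersion and the quasi-likelihood F test on 4 condition means of all 12 libraries, for 7 comparisons. Adjusted p-values are Benjamini-Hochberg values over all 16222 tested genes, and genes were called under 0.05. Standard errors are the log2 fold change over the square root of F. The contrasts averaged over the other factor use all 12 libraries. Log2 ratios of FPKM were tested with exact permutation tests (scipy 1.17.1). FPKM was used for levels only. No pair of replicates was as alike as draws from 1 library (mean chi-square per gene 2.44 to 6.87). The fit was also run on simulated counts with known changes, and the outcome is not reported here.

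The members and gene lists were chosen with earlier results of these data known. Named beside the 10 members are genes of those lists that were called or among the 3 highest in mean FPKM, and the 3 genes most correlated with each called member; some genes of the lists are not reported here. The alternatives were normalisation with DESeq2 1.42.0 size factors, its Wald test, no count filter, fits on just the 6 libraries compared, a replicate block, each library left out, ratios within 1 level and, added after seeing the data, leaving out both low-glucose libraries numbered 3. Promoter and coding sequences came from RefSeq (GRCm38.p6) and GENCODE M21. Figures were drawn with matplotlib 3.10.9.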

Additional observations from a re-analysis of the deposited data

How the results depend on the processing

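For glucose averaged over treatment the count of called members was 2, between 1 and 2 with a single library left out, 3 with the replicate block and 0 without both low-glucose libraries numbered 3 (an alternative added after seeing the data), a setting under which 1478 of all genes were called against 1328. Under it Gcg (0.0894) and Iapp (0.0612) lost their calls and these log2 differences turned sign: Sst for averaged glucose (-0.00361), Ins1 (-0.012) and Chgb (-0.0145) for glucose in TMAO, Gcg (0.000813) and Ucn3 (-0.0706) for TMAO at low glucose and Ucn3 (-0.0464) for averaged TMAO. With the replicate block Ins2 was also called for averaged glucose (0.0785, edgeR adjusted p = 0.0485). Over all genes, 2 of 12 same-numbered pairs correlated above 0.1 (range -0.0377 to 0.213), those of replicates 1 and 3 at low glucose, so the numbers were not taken to pair the libraries throughout, although the members were lowest in both low-glucose libraries numbered 3. The block changed no other call of a member. Without the count filter Ins2 for TMAO at high glucose turned to 0.000757. Within 1 level, where exact permutation p cannot go below 0.1 with 3 against 3, the Iapp to insulin ratio turned to -0.01254 for glucose in vehicle and -0.008291 for TMAO at low glucose, and the Ins2 to Ins1 ratio to 0.002361 for TMAO at low glucose.

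None of the differences whose sign turned with a single library left out had been called, and their log2 ranges span 0. For TMAO at high glucose these ran from -0.0356 to 0.0196 for Ins2, -0.0819 to 0.0371 for Ucn3, -0.0462 to 0.00432 for Chga, -0.142 to 0.0879 for Sst and -0.00467 to 0.0331 for Chgb. For TMAO at low glucose they ran from -0.0394 to 0.0866 for Ins1, -0.0343 to 0.0736 for Ins2, -0.0291 to 0.0333 for Iapp, -0.0904 to 0.0984 for Ucn3, -0.00437 to 0.0182 for Chga and -0.0267 to 0.022 for Gcg. For averaged TMAO they ran from -0.0197 to 0.00464 for Gcg, -0.0171 to 0.0365 for Ins2, -0.0562 to 0.0384 for Ucn3, -0.00146 to 0.0612 for Ins1 and -0.0176 to 0.00773 for Chga. For glucose they ran from -0.335 to 0.0332 for Sst in vehicle, and from -0.0128 to 0.117 for Ins1 and -0.0154 to 0.0292 for Chgb in TMAO. The cause was not tested. Sst, Ppy and Pyy are limited by counts.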
